A study of Mus musculus with 32 samples.

Results

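The 9 genes described here, Rims1, Rims2, Syt1, Bsn, Pclo, Ctbp2, Cacna1f, Cabp4 and Slc17a7, make the release machinery of the photoreceptor terminal. They were taken by symbol, for their known roles at the terminal, from a table of 54232 genes. The choice was made with earlier results of these data known. All 9 passed the filter on low counts and were tested.

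A photoreceptor releases glutamate continuously in the dark and reduces release in light. Its terminal holds a synaptic ribbon, a plate built mainly of RIBEYE that tethers vesicles above the release site, and is anchored to the membrane with the help of bassoon. Calcium enters through L-type channels close to the ribbon, RIM proteins tie vesicles and channels together, a calcium sensor triggers fusion, and a transporter refills the vesicles with glutamate. The output of mammalian photoreceptors varies with circadian time, and Per1 and Per2 are repressors of the clock that sets this time.

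Photoreceptors had been cut by laser capture from frozen eyes of male mice aged 6 weeks on a C57BL/6/J x 129 SvEvBrd background, and their RNA was sequenced. The mutant animals, KO, carried the genotype Per1-/-Per2Brdm1, and the controls were wild type, WT. Both genotypes were sampled at circadian time (CT) 19, CT22, CT1 and CT10, counted in hours of the internal day, with 4 libraries in each of the 8 groups. Both are germline alleles, so cells other than photoreceptors carry them too. The titles number the libraries within a group without saying what a number stands for, so p-values measure the spread between libraries, which may be partly technical. The WT CT1 library called replicate 5 carries 2 such numbers, and the WT CT10 library called replicate 5 has R in its title where all other libraries have L.

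Library totals ranged from 23833604 to 34582742 counts, and a level of 1 CPM, a count scaled to library size, stood for 23.8 counts in the smallest library. The 12 rod markers summed to between 86651 and 153302 CPM in single libraries and the cone markers to between 2050 and 3808 CPM. Per1 ranged from 169.9 to 323 CPM in KO libraries and from 94.4 to 146 CPM in WT libraries, and Per2 from 168 to 267 CPM in KO libraries and from 15.2 to 44.3 CPM in WT libraries, so that both lay higher in KO without overlap. Since these counts cover all exons of a gene, they check nothing about the deletion. Markers of the inner retina were present at low level, 14 bipolar markers summing to 436 to 1102 CPM and none of them at 0 throughout. The inner retina level, the mean log2 CPM of bipolar, amacrine and Müller glia markers, ranged at CT10 from 4.07 to 4.47 in KO libraries and from 2.74 to 3.60 in WT libraries, without overlap. Where this level is a covariate below, it and genotype therefore cannot be told apart at CT10. Lens markers had at CT10 a mean log2 CPM of 3.94 ± 1.44 in KO and 6.44 ± 0.911 in WT libraries (SD, n = 4 each). This lens level ranged there from 2.37 to 5.60 in KO and from 5.71 to 7.61 in WT libraries, without overlap. As a covariate it likewise cannot be told apart from genotype at CT10. In such bulk samples, fewer cells of a type and less RNA per cell cannot be told apart.

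Start-site sequences are shown for members whose level varied with time, Syt1 and Rims1, and for the internal start of Ctbp2 from which the ribbon protein is made. The gene Ctbp2 gives a transcriptional corepressor from its distal start and RIBEYE from this internal start, where the annotated transcript that begins at position 133015248 codes for 988 codons, against 445 codons for the main transcript of the distal start. Counts per gene add both forms. The windows are RefSeq sequences of GRCm38.p6, 250 bases before to 50 bases after a start, read 5′ to 3′ on the minus strand on which these genes lie, and capitals mark a searched motif.
Ctbp2 internal start, chr7:133015198-133015497: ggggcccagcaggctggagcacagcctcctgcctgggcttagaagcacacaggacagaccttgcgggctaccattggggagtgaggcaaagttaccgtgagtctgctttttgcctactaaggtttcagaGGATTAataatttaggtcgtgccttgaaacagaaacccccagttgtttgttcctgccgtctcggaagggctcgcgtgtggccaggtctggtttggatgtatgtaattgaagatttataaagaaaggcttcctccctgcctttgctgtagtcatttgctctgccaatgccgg
Syt1 first start, chr10:109010926-109011225: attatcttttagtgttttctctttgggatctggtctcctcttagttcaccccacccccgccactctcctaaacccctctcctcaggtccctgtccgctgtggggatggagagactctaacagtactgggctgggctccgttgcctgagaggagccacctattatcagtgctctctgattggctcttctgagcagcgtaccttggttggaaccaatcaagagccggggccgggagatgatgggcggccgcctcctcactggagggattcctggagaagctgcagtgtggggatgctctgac
Syt1 second start, chr10:109009062-109009361: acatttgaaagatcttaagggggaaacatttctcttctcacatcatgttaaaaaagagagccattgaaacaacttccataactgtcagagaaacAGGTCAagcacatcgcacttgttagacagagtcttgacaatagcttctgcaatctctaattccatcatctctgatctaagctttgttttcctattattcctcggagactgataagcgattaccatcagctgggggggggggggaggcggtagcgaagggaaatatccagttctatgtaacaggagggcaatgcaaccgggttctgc
Rims1, chr1:22806109-22806408: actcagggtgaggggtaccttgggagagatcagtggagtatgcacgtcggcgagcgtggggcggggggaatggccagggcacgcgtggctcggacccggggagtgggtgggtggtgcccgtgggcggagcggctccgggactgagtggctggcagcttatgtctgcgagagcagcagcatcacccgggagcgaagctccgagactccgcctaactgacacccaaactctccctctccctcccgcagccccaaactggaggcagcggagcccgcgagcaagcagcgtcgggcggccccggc
In the Ctbp2 window, the capitals mark the reverse complement of TAATCC, the core that the photoreceptor factor CRX binds, 121 bases before the start. In the second Syt1 window they mark AGGTCA, the half-site of ROR and REV-ERB receptors, 156 bases before the start. The Rims1 window and the first Syt1 window held no match.

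RefSeq windows were found for 7 of the 9 genes, 9 windows in all, with none for Rims2 and Cabp4. Both strands were searched for 5 motifs. The ROR half-site AGGTCA occurs in 16.3% of all 32851 windows of 300 bases, and the only other match to it among the members was in Cacna1f, 32 bases before its start. The CRX core TAATCC occurs in 7.06% of windows and was found among the members in the internal Ctbp2 window only. The E-box CACGTG, which CLOCK and BMAL1 bind, occurs in 7.15% of windows, the D-box, TTATGTAA or TTACGTAA, in 1.06%, and the CRE half-site TGACG in 20.8%. None of these last 3 was found in a member's window, which says only that these letters are not in these 300 bases. No match overlapped another.

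Levels differed widely among the members, here as CPM per kilobase of annotated exon averaged over all 32 libraries. Slc17a7 (chr7:45163949-45176142, plus strand), the transporter that fills vesicles with glutamate, was highest at 632 CPM per kilobase, above 99.7% of tested genes. Cacna1f (chrX:7607083-7635196, plus strand), the pore subunit of the photoreceptor L-type calcium channel, and Syt1 (chr10:108497650-109010982, minus strand), a calcium sensor of fusion, followed at 90.1 and 87.1 CPM per kilobase. Their ranges over libraries, 62.9 to 127 for Cacna1f and 60.3 to 125 for Syt1, overlapped almost fully. Cabp4 (chr19:4135423-4144033, minus strand), a calmodulin-like protein that tunes this channel, and Ctbp2 (chr7:132987563-133124354, minus strand) lay together at 67.4 and 67.0 CPM per kilobase. Rims2 (chr15:39198261-39684372, plus strand), a RIM protein, stood at 30.1 CPM per kilobase. The giant scaffolds Pclo (piccolo, chr5:14514918-14863459, plus strand) and Bsn (bassoon, chr9:108096022-108190384, minus strand) had 10.04 and 8.13 CPM per kilobase. Rims1 (chr1:22286251-22805994, minus strand), the other RIM protein, was lowest at 0.847 CPM per kilobase, above 31.5% of tested genes, and rested on 97 to 359 counts per library.

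The counting strand is not given in the sources used here, so reads of overlapping genes on opposite strands cannot be told apart. Cabp4 shares 131 exon bases with Gpr152 on the opposite strand, which averaged 213 CPM, and Pclo shares 496 bases with Gm26954, at 65.3 CPM. Values of these members are less certain for that reason. On the same strand, Ctbp2 shares 314 bases with Fgfr2, at 0.538 CPM.

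**Figure D1:**
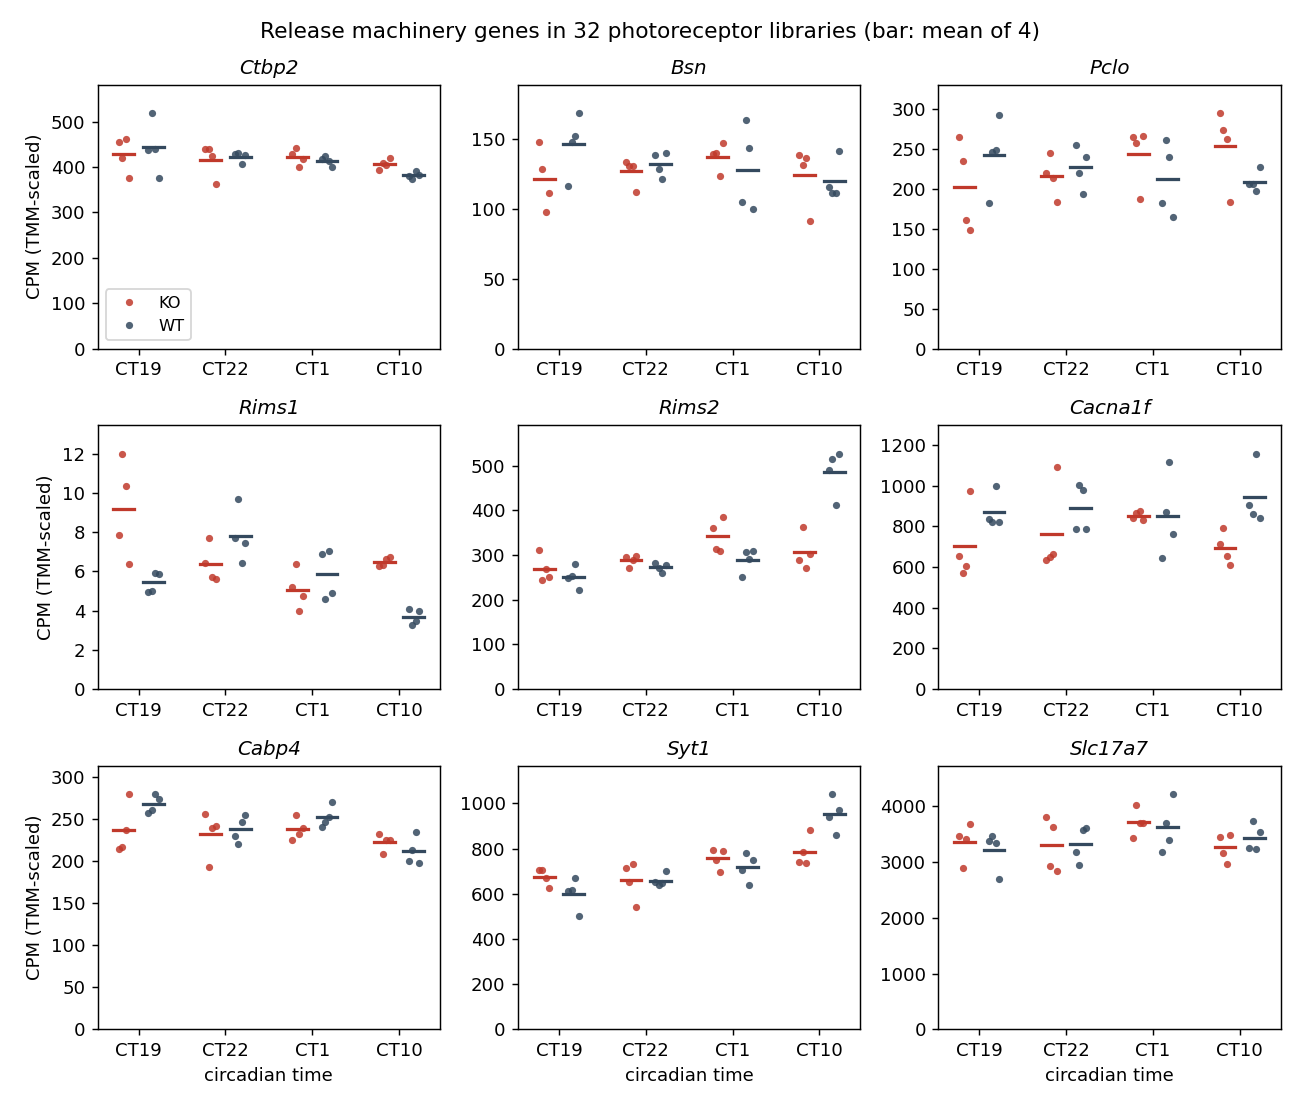
TMM-scaled CPM of the 9 genes (vertical axes, linear, from 0) in each library, by circadian time, with KO left of WT and bars at the mean of 4 libraries. Rims2 and Syt1 stand highest in WT at CT10, while Rims1 is lowest there.

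All tests below are edgeR quasi-likelihood tests over all 17871 tested genes, and a gene is called at a Benjamini-Hochberg adjusted p under 0.05. In WT photoreceptors, 4 of the 9 genes changed over the 4 times, Rims2, Syt1, Rims1 and Cabp4, where 14.6% of all tested genes were called. The range of fitted log2 means was 0.96 for Rims2 (adjusted p = 1.3e-07), 0.67 for Syt1 (adjusted p = 5.23e-05), 1.08 for Rims1 (adjusted p = 0.00114) and 0.34 for Cabp4 (adjusted p = 0.0261). In KO photoreceptors none was called, where edgeR called a single gene, 0.0056% of all tested genes. Of the members, 3 (Rims1, Rims2 and Syt1) had an unadjusted p under 0.05. DESeq2 called Rims1, where it called 183 genes in all. The KO ranges were 0.85 for Rims1 (adjusted p = 0.181), 0.35 for Rims2 (adjusted p = 0.287) and 0.25 for Syt1 (adjusted p = 0.405). The difference between genotypes itself varied with time for 2 genes, Rims1 and Rims2, where 1.62% of all tested genes were called.

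When the genotypes were set against each other at 1 time, calls among the members came at CT19 and CT10. At CT19 Rims1 was called, higher in KO, where 5.19% of all genes were called, 2.89% higher and 2.31% lower. At CT22 no member was called and none had an unadjusted p under 0.05, where edgeR called 1.53% of all genes. DESeq2 also called no member at CT22, where it called 445 genes in all. The libraries of the genotypes overlapped there for each member, while 6.71% of all genes did not overlap. At CT1 none was called and Rims2 had an unadjusted p under 0.05, where edgeR called 1.58% of all genes. DESeq2 also called no member at CT1, where it called 480 genes in all. At CT10 2 members were called, Rims1 higher and Rims2 lower in KO, where 10.2% of all tested genes were called. Over the mean of the 4 times 2 members were called, Rims1 higher and Cacna1f lower in KO, where 16.3% of all genes were called, 9.88% higher and 6.4% lower. The 16 KO and 16 WT libraries overlapped for every member, and did not overlap in 0.476% of all genes.

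Rims2 had the smallest p of the members over time in WT and was lower in KO at CT10. Its mean was 269 ± 29.5, 288 ± 11.6, 342 ± 36.5 and 307 ± 39.3 CPM in KO and 250.3 ± 23.9, 272 ± 9.44, 289 ± 26.9 and 486 ± 52.0 CPM in WT at CT19, CT22, CT1 and CT10 (SD, n = 4 each). At CT10 the KO libraries held 289, 362, 272 and 303 CPM, against 491, 515, 411 and 527 CPM in the WT libraries. Every KO library at CT10 lay below every WT library, where 19.6% of all genes did not overlap. The KO libraries at CT10 lay within the KO range of the earlier times.

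On the log2 scale the CT10 difference of Rims2, KO over WT, was -0.66 (SE 0.10, adjusted p = 3.52e-05). In WT its level at CT10 exceeded the mean of CT19 and CT22 by 0.90 (SE 0.08, adjusted p = 1.17e-08) and that at CT1 by 0.75 (SE 0.10, adjusted p = 1.84e-05). In KO the first of these steps was 0.14 (SE 0.08, adjusted p = 0.565). The 4 KO-WT differences spanned 0.91 in log2, and their inequality was called (adjusted p = 0.000745). Over CT19, CT22 and CT1 alone, a setting chosen after seeing the data, they spanned 0.16 (adjusted p = 0.867). At CT1 every KO library, from 309 to 385 CPM, lay above every WT library, from 251 to 308 CPM, and 6.75% of all genes likewise did not overlap there. The difference was 0.24 (SE 0.10, adjusted p = 0.262). With the inner retina level as a covariate the CT10 difference was -0.54 (adjusted p = 0.0354), where 1.26% of all genes were called, and the inequality was called (adjusted p = 0.0152). With the lens level added as well, the CT10 difference was -0.51 (adjusted p = 0.24). Neither level overlapped between genotypes at CT10, so these fits cannot separate them from genotype there.

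Rims1 ran the other way at a level far below that of Rims2. At CT10 the KO libraries held 6.27, 6.31, 6.66 and 6.75 CPM, against 4.09, 3.25, 3.46 and 3.99 CPM in the WT libraries. The KO libraries there were tightly grouped and all above the WT libraries, where 19.6% of all genes did not overlap. At CT19 the KO libraries held 7.88, 12.03, 10.4 and 6.39 CPM, against 4.96, 4.98, 5.93 and 5.88 CPM in the WT libraries, again without overlap, as in 10.1% of all genes, but with a wide spread among the KO libraries.

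The log2 differences of Rims1, KO over WT, were 0.81 at CT10 (SE 0.18, adjusted p = 0.00399) and 0.75 at CT19 (SE 0.18, adjusted p = 0.0119), while at CT22 and CT1 they were -0.29 (SE 0.18, adjusted p = 0.557) and -0.21 (SE 0.18, adjusted p = 0.653). Their inequality was called, with a span of 1.11 (adjusted p = 0.00913). In WT, Rims1 fell at CT10 by 0.82 in log2 against the mean of CT19 and CT22 (SE 0.16, adjusted p = 0.000528), its mean being 5.44, 7.81, 5.85 and 3.698 CPM in the order of times. Within groups, Rims1 was higher in libraries with more inner retina RNA, by 0.45 per unit of that level (SE 0.16, adjusted p = 0.0461), where 15.6% of all genes had a called slope, 8.68% positive and 6.96% negative. With that level as a covariate, the differences were 0.36 at CT10 (adjusted p = 0.546) and 0.51 at CT19 (adjusted p = 0.134), and neither their inequality (adjusted p = 0.114) nor the WT time course (adjusted p = 0.15) was called. Since that level did not overlap between genotypes at CT10, this fit cannot separate it from genotype there. In WT that level ranged from 2.74 to 3.60 at CT10 and from 4.09 to 4.39 at CT22, without overlap. The fit therefore cannot separate it from time between these 2 groups either. Without the KO CT19 replicate 3, the CT19 difference of Rims1 was 0.60 (adjusted p = 0.0716).

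Syt1 rose late in the WT day as Rims2 did, with a smaller amplitude. Its WT mean was 601 ± 70.3, 659 ± 28.2, 719 ± 61.3 and 953 ± 76.1 CPM in the order of times (SD, n = 4 each). At CT10 the KO libraries held 743, 784, 735 and 883 CPM, against 939.7, 1043, 859 and 972 CPM in the WT libraries. The highest KO library passed the lowest WT library, and the other KO libraries lay below all WT libraries.

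In WT the step of Syt1 from the mean of CT19 and CT22 to CT10 was 0.60 in log2 (SE 0.08, adjusted p = 3.8e-06), and in KO it was 0.24 (SE 0.08, adjusted p = 0.255). The genotype difference at CT10 was -0.28 (SE 0.09, adjusted p = 0.0533), just outside the threshold, and DESeq2 called it (adjusted p = 0.0293). The 4 genotype differences spanned 0.45, and their inequality was not called (adjusted p = 0.173). The WT time course of Syt1 was called with the inner retina level as a covariate (adjusted p = 0.00364) and with both levels (adjusted p = 0.0236), as was that of Rims2 (adjusted p = 0.000165 and 0.00189). Within groups, the slopes of Syt1 and Rims2 on the inner retina level were -0.01 (SE 0.09, adjusted p = 0.972) and -0.13 (SE 0.09, adjusted p = 0.425).

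**Figure D2:**
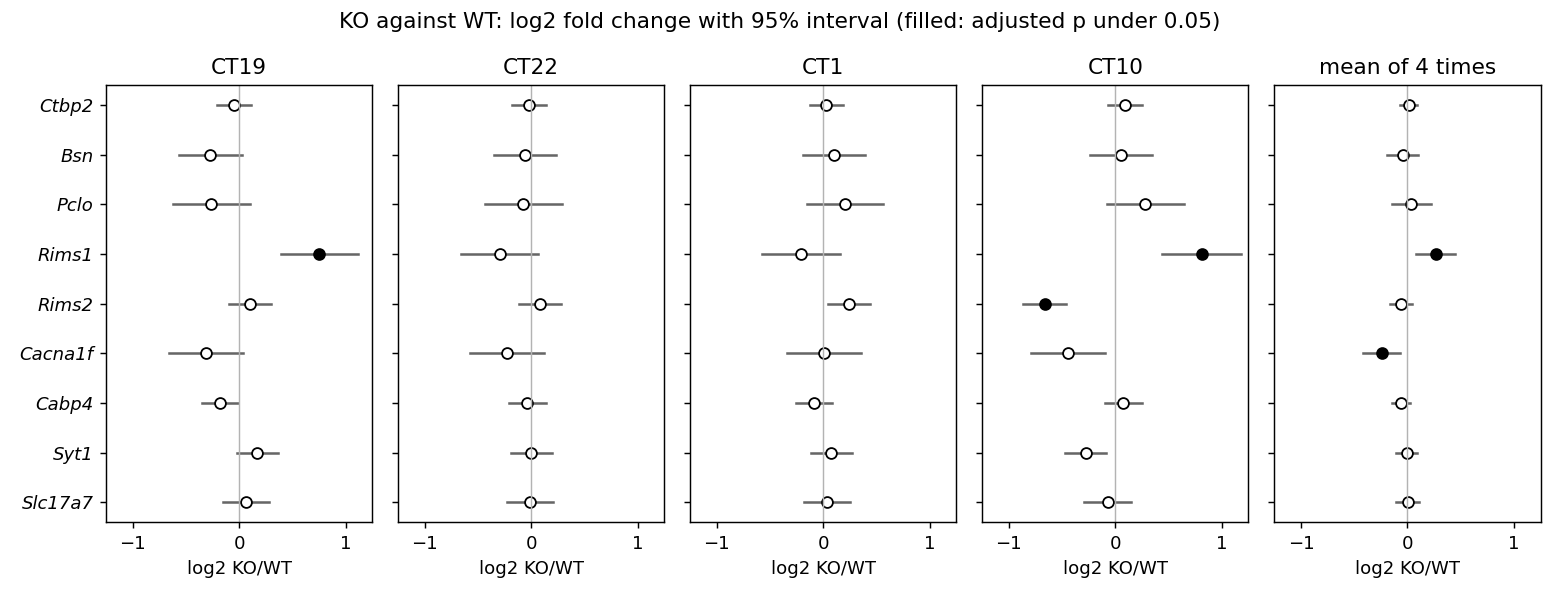
Log2 fold change of KO over WT (horizontal axes) with its 95% interval for each of the 9 genes, at each time and over the mean of the 4 times. Filled points passed the adjusted threshold; Rims1 is filled at CT19, at CT10 and over the mean, Rims2 at CT10, and Cacna1f over the mean.

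Of the calcium entry genes, Cacna1f was lower in KO over the mean of the 4 times by a small amount. The 16 KO libraries ranged from 572 to 1093 CPM around a median of 688, against 642 to 1158 CPM around a median of 851 in the 16 WT libraries. These ranges overlap widely. The difference was -0.24 in log2 (SE 0.09, adjusted p = 0.0495), at the edge of the threshold, and Rims1 over the same mean had 0.27 (SE 0.09, adjusted p = 0.0396). With single libraries left out, between 0 and 2 members were called over this mean. At CT10 alone the KO libraries of Cacna1f, 714, 792, 655 and 610.1 CPM, all lay below the WT libraries, 907, 861, 1158 and 842 CPM, with a difference of -0.44 (SE 0.17, adjusted p = 0.1). The genotypes likewise did not overlap there in 19.6% of all genes. At CT19, CT22 and CT1 the Cacna1f differences were -0.31, -0.23 and 0.0075 (adjusted p = 0.302, 0.672 and 0.991). It was thus called at no single time.

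Cacna1f and Cabp4 were lower in libraries with more inner retina RNA within a group, by slopes of -0.51 (SE 0.14, adjusted p = 0.0102) and -0.23 (SE 0.07, adjusted p = 0.0346). With that level as a covariate, neither Cacna1f nor Rims1 was called over the mean, where 4.69% of all genes were: the mean difference of Cacna1f was -0.03 (adjusted p = 0.92) and that of Rims1 was 0.06 (adjusted p = 0.819). The mean includes CT10, where that level and genotype cannot be told apart. Cabp4 changed over time in WT, with means of 268, 238, 252 and 211 CPM, and its CT10 level differed from the mean of CT19 and CT22 by -0.26 in log2 (SE 0.07, adjusted p = 0.0122). Its WT time course was not called without WT CT19 replicate 3 or without any of WT CT10 replicates 1, 2 and 5, nor with the lens level as a covariate (adjusted p = 0.0771). In WT the lens level ranged from 0.47 to 4.41 at CT19 and from 5.71 to 7.61 at CT10, without overlap. That fit therefore cannot separate the lens level from time between these groups. In KO the 4 means of Cabp4 lay between 222 and 237 CPM. At no single time was Cabp4 called between genotypes, and at CT19 its difference was -0.18 (SE 0.08, adjusted p = 0.209).

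**Figure D3:**
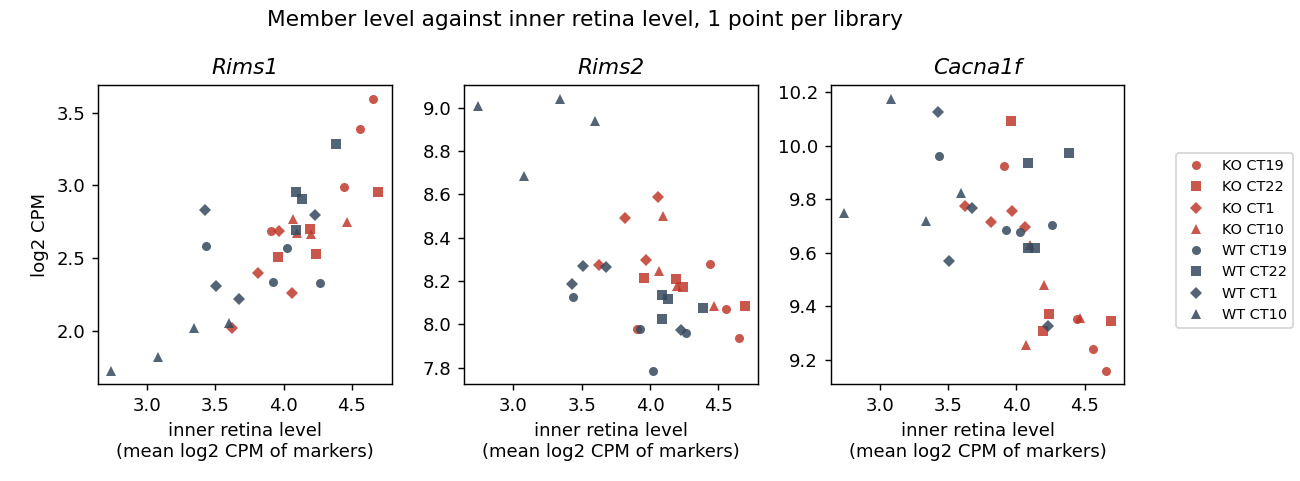
Log2 CPM of Rims1, Rims2 and Cacna1f (vertical axes) against the inner retina level (mean log2 CPM of markers, horizontal axes), 1 point per library, KO in red and WT in dark blue. The 4 WT CT10 libraries lie at the left, between 2.74 and 3.60, and the KO CT10 libraries between 4.07 and 4.47.

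Ctbp2, Bsn and Pclo, of the ribbon and its scaffold, and Slc17a7 were called by edgeR in none of the genotype and time comparisons, and by DESeq2 in none of those on which it was run. Nearest to the threshold was Ctbp2 in WT, whose CT10 level differed from the mean of CT19 and CT22 by -0.18 in log2 (SE 0.07, adjusted p = 0.0524). Ctbp2 held 393, 408, 405 and 421 CPM in KO libraries at CT10, against 381, 374, 391 and 382 CPM in WT libraries. These 8 values did not overlap but lay close together, with a difference of 0.09 in log2 (SE 0.08, adjusted p = 0.516). Over the mean of the 4 times the interval of the Ctbp2 difference, KO over WT, ran from -0.07 to 0.09. In all, 4 members, Rims1, Rims2, Ctbp2 and Cacna1f, did not overlap between genotypes at CT10, as did 19.6% of all genes.

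Bsn averaged 128 ± 16.5 CPM in KO and 132 ± 20.95 CPM in WT libraries (SD, n = 16 each), and Pclo averaged 229 ± 44.8 CPM in KO and 222 ± 34.7 CPM in WT libraries. Their differences over the mean of the 4 times were -0.04 (95% interval -0.19 to 0.10) and 0.04 (-0.14 to 0.22). Slc17a7 averaged 3411 ± 356 CPM in KO and 3401 ± 349.6 CPM in WT libraries, with a difference of 0.0040 (-0.11 to 0.11). Its 4 group means spanned 0.18 in log2 in KO (adjusted p = 0.781) and 0.17 in WT (adjusted p = 0.63).

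Repeat libraries of a group differed in log2 CPM with a standard deviation of 0.10 (Ctbp2) to 0.27 (Pclo). The median was 0.26 over all genes and 0.16 over genes as high in level. The tested genes whose 8 group means lay nearest to those of a member, by root mean square difference of centred log2 CPM among 10681 candidates, were Zfp455, Shroom2 and Trpc1 for Rims2 (0.07 each). They were Cep295, Pms1 and Uri1 for Syt1 (0.05 each) and Phactr3, Tceal5 and Ncs1 for Rims1 (0.05, 0.06 and 0.08). For Cabp4 they were Ppp4c, Dedd and Szrd1 (0.02 to 0.03).

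The release machinery was also grouped by role, into lists that include the members, and the counts of these lists at CT10 are set beside the 10.2% of all genes called there, 7.2% higher and 3.02% lower in KO. Of 17 active zone and ribbon scaffold genes, a list that holds 5 of the members, 5 were higher and 2 lower in KO, with a median log2 difference of 0.09 against -0.0058 over all genes. Beside Rims1 and Rims2 these included Rimbp2, which codes for a RIM-binding protein, at 1.16 (SE 0.27, adjusted p = 0.00524). Of 10 calcium channel and presynaptic calcium genes, Cacna1f and Cabp4 included, 4 were higher and 1 was lower, with a median of 0.09. The higher ones were Cacna1d, another L-type pore subunit, the calcium pump gene Atp2b2, the calcium release channel gene Ryr2 and the potassium channel gene Kcnma1, with differences from 0.90 to 1.55. The lower one was Cacnb2, a subunit of calcium channels, at -0.38 (SE 0.08, adjusted p = 0.00289). Within groups, Rimbp2 and each of the 4 higher calcium genes rose with the inner retina level, with slopes from 0.62 to 1.05, while the slope of Cacnb2 was 0.04 (adjusted p = 0.831).

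Of 14 SNARE and fusion genes, Syt1 included, 1 was higher in KO, the membrane SNARE gene Snap25 at 0.30 (SE 0.10, adjusted p = 0.0455), and 1 was lower, with a median of 0.03. Of 18 vesicle and glutamate genes, Slc17a7 included, 4 were higher and none lower, with a median of 0.07: Syngr3, Slc1a7, Sv2a and Rph3a. Of 16 vesicle recovery genes, Cltb, a clathrin light chain gene, was the single one called, at 0.44 (SE 0.11, adjusted p = 0.00733), and the median was -0.03. Of 14 genes typical of conventional synapses of the inner retina, 6 were higher in KO and none lower, with a median of 0.62, among them Syn1, which codes for a synapsin, at 0.70 (SE 0.15, adjusted p = 0.00358). In that group 7 of 14 genes had a called positive slope on the inner retina level within groups, where 8.68% of all genes had one. Among the members, Rims1 had a called positive slope and Cacna1f and Cabp4 a called negative one.

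The photoreceptor forms of the machinery dominated over the conventional ones in level per length. Cplx4, a complexin of ribbon synapses, had 478 CPM per kilobase and Stx3, the syntaxin of ribbon terminals, 201 CPM per kilobase. Stx1a, the syntaxin of conventional synapses, had 0.401 and the synapsin gene Syn2 0.336 CPM per kilobase. Slc17a6, the glutamate transporter of other neurons, had 0.265 CPM per kilobase, against the 632 of Slc17a7.

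The genotype difference also varied with time for Unc13a and Slc1a7, outside the members. Unc13a, a priming factor gene that shares 495 exon bases with Colgalt1 on the opposite strand, changed side between times, and its 4 differences were unequal (adjusted p = 0.00118). At CT19 its KO libraries held 101, 125.5, 116 and 117 CPM, against 160.2, 164, 233 and 182 CPM in the WT libraries, with a difference of -0.69 (SE 0.14, adjusted p = 0.00386). At CT10 they held 119.8, 117, 123 and 119.4 CPM, against 76.1, 73.9, 100.2 and 65.4 CPM in the WT libraries. The KO libraries were thus below WT at CT19 and above WT at CT10 without overlap, and the KO means stayed between 115 and 127 CPM. At CT22 the KO libraries, from 108 to 159 CPM, were also below all WT libraries, from 166 to 203 CPM. Of all genes, 10.1% did not overlap between genotypes at CT19, 6.71% at CT22 and 19.6% at CT10. Slc1a7, a glutamate transporter gene of photoreceptor terminals, averaged 284, 273, 269 and 274 CPM in KO and 327, 298, 284 and 224 CPM in WT in the order of times. Its differences were unequal (adjusted p = 0.0249), with 0.29 at CT10 (SE 0.07, adjusted p = 0.0107). Slc1a7 changed side too. Its KO libraries lay below all WT libraries at CT19 (259 to 296 against 318 to 346 CPM) and at CT22 (239 to 286 against 287 to 321 CPM). At CT10 they lay above all WT libraries. With the inner retina level as a covariate the CT10 differences were 0.89 for Unc13a (adjusted p = 0.0105) and 0.44 for Slc1a7 (adjusted p = 0.0142). With the lens level as well they were 0.67 (adjusted p = 0.208) and 0.38 (adjusted p = 0.199), not called, while Unc13a was called at CT19 with -0.51 (adjusted p = 0.047) and at CT22 with -0.51 (adjusted p = 0.0255). At CT10 these fits cannot separate the marker levels from genotype, since neither level overlapped between genotypes there.

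**Figure D4:**
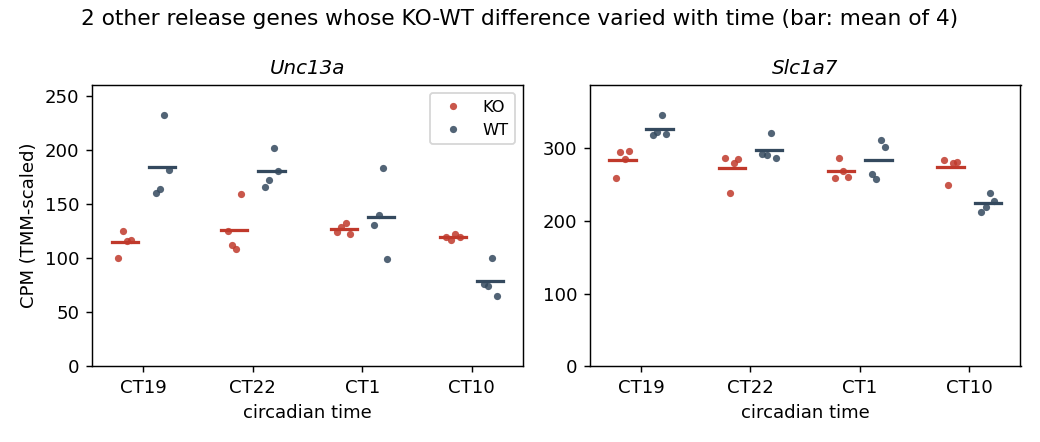
TMM-scaled CPM (vertical axes, linear, from 0) of Unc13a and Slc1a7 in each library by circadian time, with KO left of WT and bars at the mean of 4 libraries. At CT10 both are higher in KO libraries, without overlap between genotypes, where 19.6% of all genes do not overlap.

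Over the mean of the 4 times, 5 of 17 scaffold genes (4 higher, 1 lower), 6 of 10 calcium genes (4 higher and 2 lower, Cacna1f among the lower), 4 of 14 SNARE and fusion genes (1 higher, 3 lower) and 5 of 18 vesicle genes (3 higher, 2 lower) were called, beside 16.3% of all genes. Of 16 vesicle recovery genes, 1 was called over this mean, lower in KO. Others among the lower ones were Cplx4 at -0.15 (SE 0.04, adjusted p = 0.0112), Cplx3, another complexin of ribbon synapses, at -0.21 (SE 0.07, adjusted p = 0.0481), and Cacna2d4, an auxiliary subunit of the photoreceptor calcium channel, at -0.19 (SE 0.05, adjusted p = 0.0151). Their slopes on the inner retina level were -0.18 for Cplx4 (adjusted p = 0.109), 0.46 for Cplx3 (adjusted p = 0.00867) and -0.39 for Cacna2d4 (adjusted p = 0.00117). In WT, CT10 differed from the mean of CT19 and CT22 in 22.9% of all genes (11.6% higher and 11.3% lower) and in 4 of the 9 members, 2 higher and 2 lower at CT10. Of the scaffold genes 3 were higher and 5 lower at CT10, of the calcium genes 1 and 6, of the SNARE and fusion genes 2 and 5, and of the vesicle genes 2 and 8. Of the 16 vesicle recovery genes, 3 were higher and 4 lower. In the same contrast 12 of 14 bipolar markers (median -0.97), 10 of 12 amacrine markers (-0.93) and 9 of 14 Müller glia markers (-0.70) were lower at CT10 and 12 of 14 lens markers (2.39) were higher, and their part in the counts of the lists was not tested. Sv2b, a vesicle protein gene, was higher by 0.51 (SE 0.11, adjusted p = 0.000857), and Unc13a lower, with -1.21 (SE 0.13, adjusted p = 1.4e-07). The CT10 minus CT1 step in WT was called in 5.8% of all genes (2.76% higher and 3.03% lower) and in 3 members, Rims2 and Syt1 higher and Rims1 lower at CT10. Between CT22 and CT1 edgeR called no member in either genotype, with 2 in KO (Rims2 and Syt1) and 1 in WT (Rims1) at an unadjusted p under 0.05; DESeq2 was not run on that step.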

How the data were processed

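Raw read counts per Ensembl gene for 32 libraries were used as the authors deposited them, in 1 table of 54232 genes. HISAT2 2.1.0, HTSeq 0.11, Trimmomatic 0.32 and Cufflinks, with build GRCm38.p6, are named in the submitters' processing notes, without order or role, and the annotation release and strand setting were not given in these sources. Per the labels' protocols, RNA came from the Qiagen RNeasy Micro kit and libraries from the KAPA mRNA HyperPrep kit. Libraries were placed in groups by their labels. No pair of libraries within a group was identical, and all 48 such pairs differed beyond sampling noise (a chi-square of 11.2 to 97.8 for each degree of freedom).

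In R 4.3.3, edgeR 4.0.16 kept genes by filterByExpr (minimum count 10, minimum total 15), which left 17871 genes holding 99.9% or more of every library. Libraries were scaled by TMM, all 32 entered 1 fit with a mean per group (24 residual degrees of freedom, biological coefficient of variation 0.199), and contrasts were tested by the robust quasi-likelihood test with Benjamini-Hochberg adjustment over all tested genes. For a test over 4 times, effect size is the span of fitted means, or of KO-WT differences, in log2. CPM values are TMM-scaled. The procedure was also run on simulated counts that held no differences in tissue makeup between libraries, and the outcome is not reported here. Alternatives were another scaling (RLE or upper quartile), no filter, a block for replicate or library number, marker levels as covariates, DESeq2 1.42.0, CT10 left out, and each library left out.

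The members and the role lists were chosen with earlier results of these data known. Named were all members, up to 4 called genes of smallest p per role list in a contrast described, the defining genes of a role, and for members called over the mean or over times the 3 tested genes of nearest profile. Some genes picked by this rule are not reported here. From each cell marker list only ranges and counts are given.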

Additional observations from a re-analysis of the deposited data

Results flagged for a closer look

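A library stood apart from the other 3 of its group in 7 of the 72 gene and group combinations, where chance alone gives about 1 in 20. For Bsn, 3 such libraries were found. In KO at CT22, replicate 4 had 112 CPM against 131 to 134 CPM in the others, and in KO at CT10, replicate 5 had 91.4 CPM against 132 to 138 CPM. In WT at CT10, replicate 5, the library with R in its title, had 141 CPM against 111 to 116 CPM. Pclo had 187 CPM in replicate 5 of KO at CT1, against 257 to 266 CPM in the others.

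Cacna1f had 1093 CPM in replicate 4 of KO at CT22, against 634 to 662 CPM in the others, and 997 CPM in replicate 3 of WT at CT19, against 819 to 834 CPM. Slc17a7 had 2691 CPM in replicate 4 of WT at CT19, against 3344 to 3462 CPM in the others.

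The KO-WT difference varied with time, by the interaction test of edgeR, for Rims1 (the 4 differences spanned 1.11 in log2, adjusted p = 0.00913) and for Rims2 (0.91, adjusted p = 0.000745).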

How the results depend on the processing

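Among values of single genes, 653 kept their direction and side of the threshold under the alternatives, 27 lost their call, 3 gained one and 1 reversed, and with each library left out in turn 2246 kept theirs, 47 lost and 11 gained a call. When the 4 times are averaged, 2 members were called between KO and WT. The count was 1 with upper quartile scaling, with a block for library number and with the lens level as covariate, and 0 with no filter, with the inner retina level, with both levels and with CT10 left out, which was chosen after seeing the data. The reversed value was Rims1 over this mean with both levels, -0.0021 (adjusted p = 0.996). Leaving out single libraries gave 0 to 2 called. No member was called without KO CT19 replicate 3 or 4, KO CT22 replicate 2, KO CT1 replicate 1 or 4, KO CT10 replicate 4 or 5, WT CT19 replicate 1 or 2, WT CT22 replicate 3 or 6, WT CT1 replicate 3 or 5, or WT CT10 replicate 2 or 4. At CT19, 1 member was called, 0 with the inner retina level and with both levels, and 0 to 1 with libraries left out (0 without KO CT19 replicate 3). At CT22 and CT1 the count stayed at 0 under all alternatives run. At CT10, 2 were called, 3 with DESeq2 and with the replicate block, 1 with the inner retina level, 0 with both levels, and 2 to 4 with libraries left out (4 without KO CT22 replicate 4). Over time in KO, 0 were called, 1 with DESeq2, and 0 to 1 with libraries left out (1, Rims1, without KO CT19 replicate 5, adjusted p = 0.0407). Over time in WT, 4 were called, 0 with CT10 left out, 3 with the inner retina level or with both (Rims1 lost), 3 with the lens level (Cabp4 lost), and 3 to 4 with libraries left out (Cabp4 lost its call without WT CT19 replicate 3 and WT CT10 replicates 1, 2 and 5). For the interaction, 2 were called, 1 with the inner retina level, 0 with both and with CT10 left out, and 2 in each fit with a library left out. Over all genes, 2909 were called over the mean and 1825 at CT10, against 838 and 226 with the inner retina level and 619 and 67 with both levels. At CT19, 928 genes were called, against 546 with no filter, 453 with the inner retina level, 609 with the lens level, 381 with both and 1505 with DESeq2. At CT22 and CT1, DESeq2 called 445 and 480 genes, against 273 and 282. Over time in KO, 1 gene was called, against 5 with no filter and 183 with DESeq2. Over time in WT, 2615 genes were called, against 1444 with the inner retina level, 1627 with the lens level, 445 with both and 0 with CT10 left out. For the interaction, 289 genes were called, against 163, 116 and 4 with these levels, 0 with CT10 left out and 913 with DESeq2. The cause of these changes was not tested. The numbers in the titles did not pair the libraries: libraries of both genotypes with the same number had a median correlation of 0.0058 (12 pairs), against 0.0018 for different numbers (52 pairs), and 6 of 32 libraries correlated best with their own number. With the replicate number as a block, 2 members were called over the mean, 1 at CT19, 0 at CT22, 0 at CT1, 3 at CT10 (Syt1 with adjusted p = 0.0216), 0 over time in KO, 4 over time in WT and 2 for the interaction. Rims1 rested on 97 to 359 counts per library, so its counting error is larger than that of the other members.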

Other observations

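The adhesion proteins that join the photoreceptor terminal to its bipolar and horizontal cell partners were also looked at. Of 15 genes of this terminal adhesion list, 6 were higher and 2 lower in KO over the mean of the 4 times (edgeR's quasi-likelihood test), where 9.88% of all genes were higher and 6.4% lower, and the median log2 difference was 0.02. At CT10, 6 were higher and 1 was lower, where 7.2% of all genes were higher and 3.02% lower. Over the mean of the 4 times, Elfn2, which codes for a synaptic leucine-rich repeat protein, had the smallest p of this list. Its KO-WT difference over this mean was 0.69 (SE 0.08, adjusted p = 1.01e-07). The cell adhesion gene Cadm3 followed at 0.44 (SE 0.06, adjusted p = 2.32e-06). Lrit2 was lower over the same mean, at -0.29 (SE 0.05, adjusted p = 5.13e-05). Within groups, the slope of Cadm3 on the inner retina level was -0.31 (adjusted p = 0.033) and that of Elfn2 was 0.19 (adjusted p = 0.471), while those of the neurexin genes Nrxn2 and Nrxn3 were 0.95 and 0.96, both called.

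Bsn and Pclo, the 2 giant scaffolds, lay on the same side of their group means in 31 of the 32 libraries. Rims2 and Syt1 did so in 24 of 32, and Syt1 and Cacna1f in 10 of 32. Libraries share their depth and tissue makeup across genes, so these counts are given as a description.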
